A study of Mus musculus with 47 samples.

Results

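The Pax gene family, Pax1 to Pax9, was examined in mouse liver chromatin with and without the H3K27 methyltransferases Ezh1 and Ezh2. The members were taken by name and located by their mm9 gene spans, which gave 9 of the 22225 protein-coding genes. The marks H3K27me3, H3K27ac and H3K4me1 were profiled by ChIP-seq in 47 samples of whole liver from 7 week old mice, 4 livers for each mark and group except for 3 H3K4me1 samples of E1/E2-KO females. The floxed controls, male and female, carried Ezh2 f/f. The E1/E2-KO mice, male and female, were Ezh1-/-, EZH2f/f, AC+ (AC, Alb-Cre), so that Ezh1 was absent from all cells while Ezh2 was deleted where the albumin promoter drives Cre, in hepatocytes. Non-parenchymal liver cells of these mice keep Ezh2, and a peak in whole liver cannot be assigned to a cell type, nor can fewer marked cells be told apart from less of the mark in each cell.

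The authors deposited 12 lists, 1 for each mark and group, called on the combined reads of the livers of that group. The lists give positions only. Every value below is therefore a single value per group with no replicate, the sequencing depth behind it is unknown, and no test between groups was possible. The H3K27me3 lists held 15603 to 19796 regions covering 707 to 766 Mb. The H3K4me1 lists held 51417 to 69797 peaks. The H3K27ac lists held 29359 peaks in control males, 55930 in E1/E2-KO males, 49702 in control females and 51253 in E1/E2-KO females, so the control male H3K27ac list was by far the shortest. Of 6 hepatocyte markers, none was at least 50% covered by H3K27me3 in either control list, 3 (Apoa1, Hnf4a and Fgb) were covered in each E1/E2-KO list, and 5 had an H3K27ac peak within 10 kb in all 4 lists, the exception being Serpina1a, a member of a cluster of near-identical genes. Of 5 endothelial markers, 4 were covered in control males and 1 in E1/E2-KO males, and 3 in control females and 1 in E1/E2-KO females. Covered in every list were 5 of 5 cholangiocyte markers and 3 of 5 stellate cell markers. Of 5 Kupffer cell markers, 2 were covered in each list except E1/E2-KO females, where 1 was. The part of other cell types in the results below was not tested.

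Pax proteins are transcription factors that bind DNA through a paired domain, and each sets up a small number of embryonic organs and cell lineages. Pax1 and Pax9 act in the vertebral column, thymus and teeth, Pax2, Pax5 and Pax8 in kidney, B cells and thyroid, Pax3 and Pax7 in muscle and neural crest, and Pax4 and Pax6 in the endocrine pancreas and, for Pax6, the eye. Outside those lineages the genes are classic targets of polycomb repressive complex 2, which uses Ezh1 or Ezh2 to trimethylate lysine 27 of histone H3 over silent developmental genes. H3K27ac is placed on the same lysine at active promoters and enhancers, and H3K4me1 marks enhancers whether or not they are active.

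The DNA under the H3K27ac peaks and at the starts of these genes is shown first, because most of the differences between groups that follow concern individual short peaks. All sequences are from mm9, 5′ to 3′ on the strand of the gene, with CpG dinucleotides in capitals. The first stretch is common to the H3K27ac peaks of all 4 lists. The next 3 are common to the H3K27ac peaks of both E1/E2-KO lists and overlap no H3K27ac peak of either control list.
Pax2 intron, chr19:44845728-44845908, + strand: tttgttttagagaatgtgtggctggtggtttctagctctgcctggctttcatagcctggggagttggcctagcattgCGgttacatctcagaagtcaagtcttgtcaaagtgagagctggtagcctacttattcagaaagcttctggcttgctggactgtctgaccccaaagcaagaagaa
Pax2 intron, chr19:44846384-44846618, + strand: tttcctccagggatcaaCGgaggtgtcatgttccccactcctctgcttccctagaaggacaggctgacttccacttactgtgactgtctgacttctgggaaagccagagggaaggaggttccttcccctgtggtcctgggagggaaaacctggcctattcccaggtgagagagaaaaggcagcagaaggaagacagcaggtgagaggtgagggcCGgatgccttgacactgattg
Pax6 intron, chr2:105527996-105528276, + strand: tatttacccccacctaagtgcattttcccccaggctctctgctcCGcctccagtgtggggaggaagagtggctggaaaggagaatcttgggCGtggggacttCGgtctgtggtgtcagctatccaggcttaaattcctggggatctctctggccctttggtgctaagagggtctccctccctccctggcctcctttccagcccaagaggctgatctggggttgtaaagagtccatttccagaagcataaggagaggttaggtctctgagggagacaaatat
Pax8 upstream, chr2:24334540-24334761, − strand: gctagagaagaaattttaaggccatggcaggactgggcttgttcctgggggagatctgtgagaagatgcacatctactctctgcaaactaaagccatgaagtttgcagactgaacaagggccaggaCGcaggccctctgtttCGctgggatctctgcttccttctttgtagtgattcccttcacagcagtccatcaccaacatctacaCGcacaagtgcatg
These 4 stretches overlap no annotated exon and hold 1, 2, 3 and 3 CpGs in 181, 235, 281 and 222 bases. Each lay inside an H3K27me3 region in all 4 lists. H3K4me1 peaks of all 4 lists overlapped the first 3 stretches, and H3K4me1 peaks of all lists but control males overlapped the stretch upstream of Pax8.

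The promoters are shown because all of them lay in H3K27me3 regions in all 4 lists although they differ widely in CpG content. RefSeq gives 10 promoter windows for 7 members, and all 10 were found exactly once in mm9. Pax3 and Pax4 have no window in this table. The 250 bases before the start are printed for 3 members, none of which overlaps an annotated exon.
Pax2, chr19:44829992-44830241, + strand: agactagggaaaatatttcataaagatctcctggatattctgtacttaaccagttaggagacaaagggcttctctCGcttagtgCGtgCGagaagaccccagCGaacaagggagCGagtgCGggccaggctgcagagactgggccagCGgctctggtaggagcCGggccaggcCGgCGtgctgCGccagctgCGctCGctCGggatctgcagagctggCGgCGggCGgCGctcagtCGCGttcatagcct
Pax6, chr2:105508803-105509052, + strand: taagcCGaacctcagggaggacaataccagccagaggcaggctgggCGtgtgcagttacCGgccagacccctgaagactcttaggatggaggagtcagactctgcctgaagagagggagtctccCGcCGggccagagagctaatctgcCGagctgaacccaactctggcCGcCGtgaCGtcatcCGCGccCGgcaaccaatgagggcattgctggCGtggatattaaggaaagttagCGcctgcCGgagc
Pax8, chr2:24331120-24331369, − strand: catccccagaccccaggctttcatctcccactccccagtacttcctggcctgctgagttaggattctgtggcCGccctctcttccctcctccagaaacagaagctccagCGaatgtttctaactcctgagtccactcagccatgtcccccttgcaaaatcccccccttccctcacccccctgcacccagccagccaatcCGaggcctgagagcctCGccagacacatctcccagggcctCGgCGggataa
These hold 20, 15 and 6 CpGs. Over the window of 300 bases, from 250 before to 50 after the start, the CpG number was 23 at this Pax2 start, 18 at this Pax6 start and 7 at the Pax8 start, against a median of 7 over the 32841 windows of the table. The letters GCGTGAC, a core of the paired domain binding sequence, sought on both strands, were in the window of Pax1 and in none of the other 9 windows of the family, and were in 2.09% of all windows. Around the annotated gene starts of mm9 they were in 0 of 9 members over 300 bases, against 2.59% of all genes. Over 1000 bases they were also in 0 of 9, against 6.12%. At the annotated gene starts of mm9, 4 of 9 members (Pax1, Pax6, Pax7 and Pax9) had an observed to expected CpG ratio of at least 0.6 with at least 50% G+C, a share close to the 42.1% of all protein-coding genes. Over 1000 bases centred on the start, 5 of 9 members did (Pax1, Pax2, Pax3, Pax7 and Pax9), against 44.2% of all genes. Over 300 bases the ratio ran from 0.0826 at Pax4 to 0.796 at Pax9, with 2 and 24 CpGs.

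All 9 Pax genes were covered by H3K27me3 in all 4 lists. Coverage, the percent of the gene span inside called regions, was 100% in 30 of the 36 gene and list pairs, and the lowest value was 91.5% for Pax6 in control males. By the threshold of 50%, 9 of 9 members were covered in each list, where 29.9% of all protein-coding genes were covered in control males, 32.5% in E1/E2-KO males, 29.7% in control females and 28.7% in E1/E2-KO females. In all 4 lists together, 20.1% of all genes were covered from 50% and 14.2% from 90%, which all 9 members reached. Every annotated start of every member, from 2 starts in Pax1 to 21 in Pax6, lay inside a region in every list.

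Coverage counts bases inside called regions, so it cannot show whether the signal within a region was lower, and at values near 100% it can hardly tell lists apart. The values below 100 were 97.1% for Pax3 in E1/E2-KO males, 91.5% and 95% for Pax6 in control males and control females, 97.3% for Pax6 in E1/E2-KO females, 99.6% for Pax7 in E1/E2-KO females and 94.2% for Pax8 in control females. A fall of at least 25 percentage points from control to E1/E2-KO was seen for 0 of 9 members in either sex, against 6.07% of all genes in males and 7.57% in females. A rise of that size was not possible for any member, because every control value was at least 91.5%. The largest range over the 4 lists was 8.51 points, for Pax6. Because no member differed by 25 points between lists, no gene could be ranked by likeness to a Pax pattern.

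**Figure D1:**
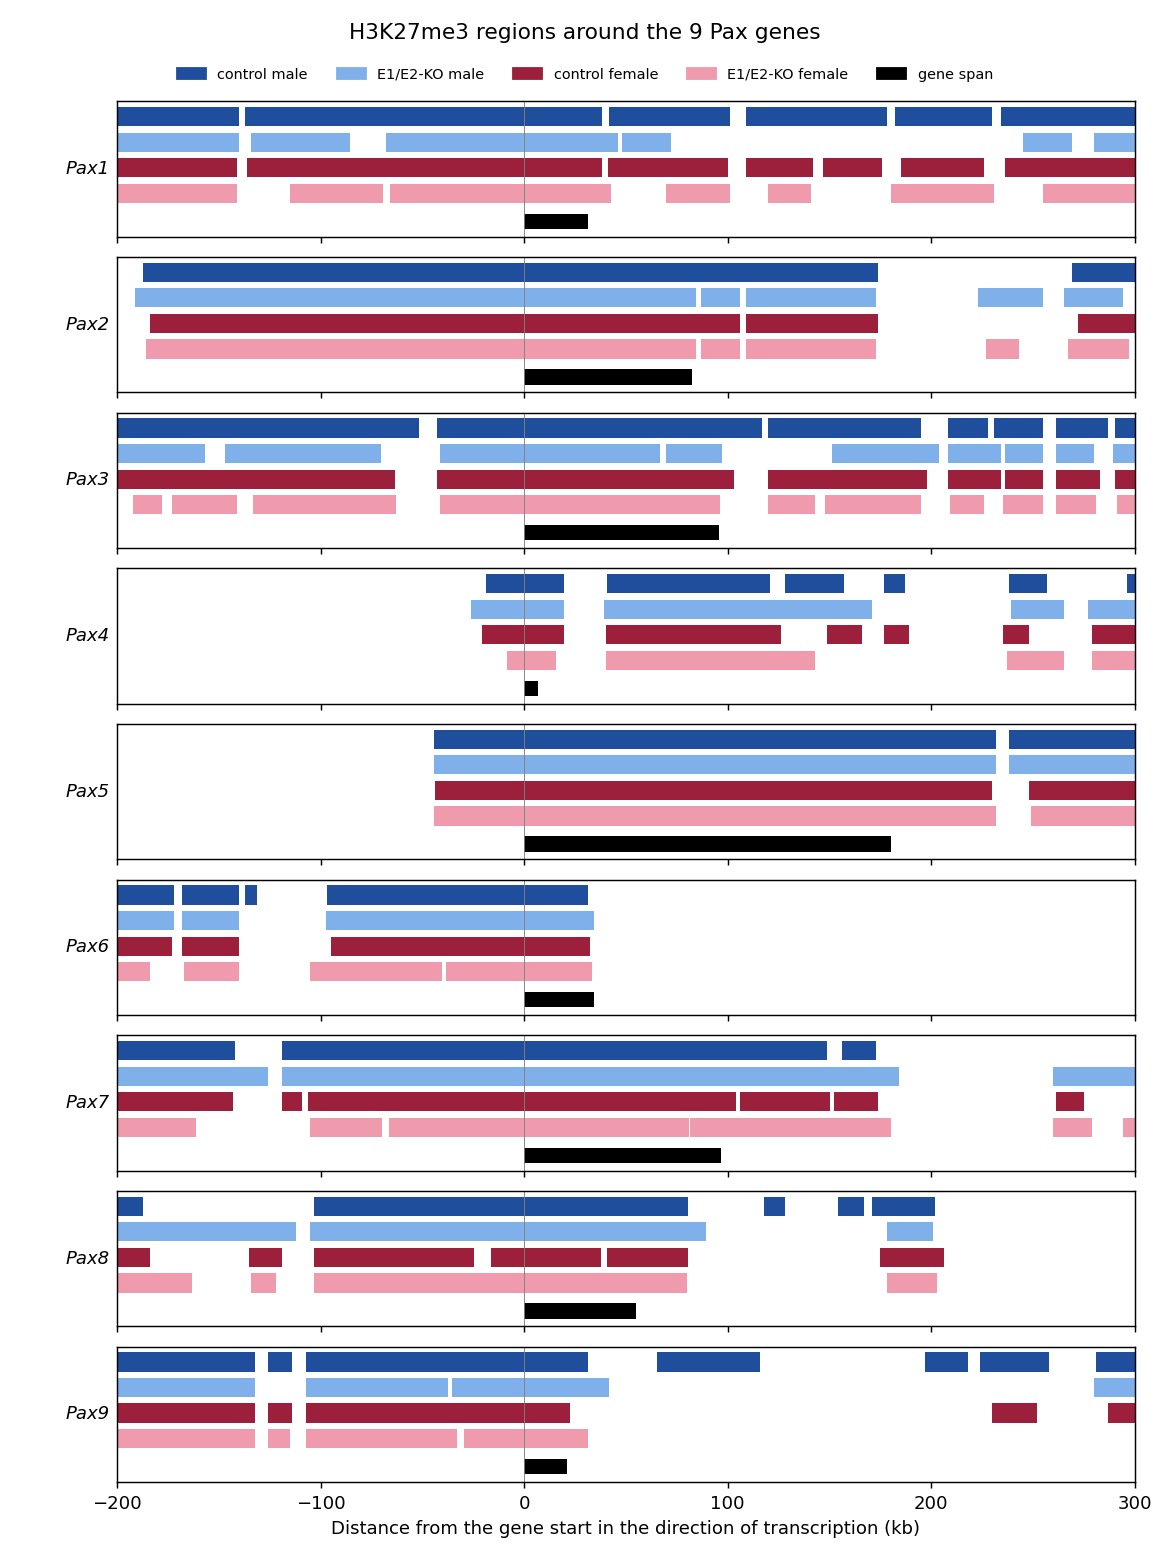
H3K27me3 regions of the 4 lists (colored bars, 1 row per list) from 200 kb before to 300 kb after the start of each Pax gene, in kb in the direction of transcription; the black bar is the gene span. The spans are at least 91.5% inside regions in all 4 rows, and the E1/E2-KO rows of Pax1, Pax2 and Pax9 are broken outside the gene where the control male row is continuous.

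The regions holding Pax genes were among the widest of each list, and, Pax4 aside, the main region at each member was wider than at least 81.7% of its list. The widest was the control male region of Pax2, at 361 kb wider than 99.7% of the regions of that list, and Pax5 lay in 1 region of 274 to 276 kb in all 4 lists. The median summed width of the regions overlapping a member was 175200 bp in control males, 136000 bp in E1/E2-KO males, 145600 bp in control females and 137200 bp in E1/E2-KO females. The 1725 genes of at least 20 kb that were covered in all 4 lists, whose median length of 49986 bp is near the Pax median of 55049 bp, had medians of 104800 to 130400 bp. Pax4 was the exception, a gene of 7020 bp in a region of 24 to 46 kb.

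**Figure D2:**
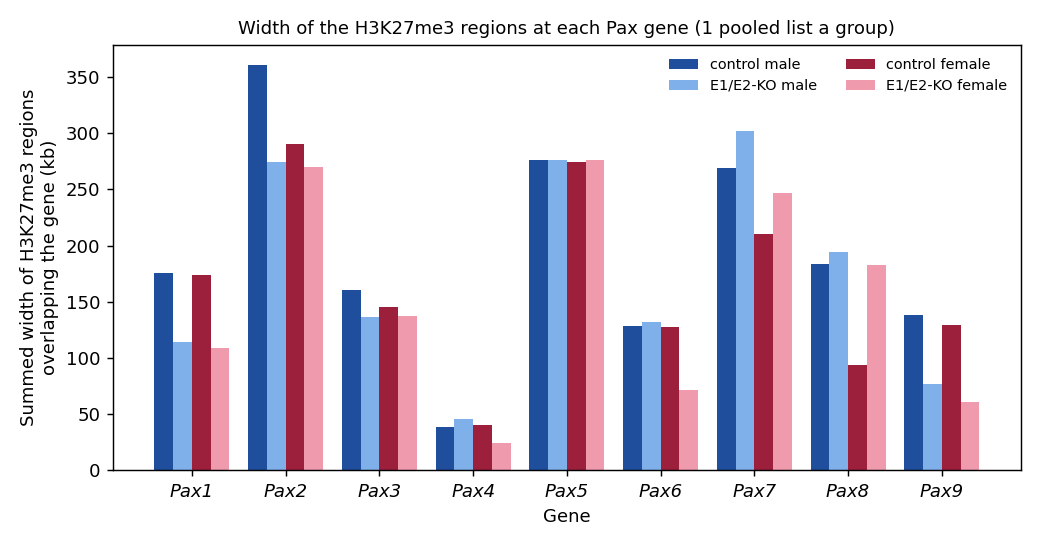
Summed width in kb of the H3K27me3 regions overlapping each Pax gene, 1 bar per pooled list. Pax5 is level at 274 to 276 kb in the 4 lists, while Pax1 and Pax9 are lower in both E1/E2-KO lists than in the controls.

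Pax1 and Pax9, the pair that patterns the vertebral column and pharyngeal pouches, had narrower regions in both E1/E2-KO lists. The Pax1 gene spans chr2:147187661-147219031 and Pax9 chr12:57792754-57813809, both on the + strand. The Pax1 region was 175 kb in control males, 114 kb in E1/E2-KO males, 174 kb in control females and 108 kb in E1/E2-KO females. Its upstream flank went from 137 to 68.1 kb in males and from 136 to 65.7 kb in females. The Pax9 region was 138 kb in control males, 77.2 kb in E1/E2-KO males, 130 kb in control females and 60.8 kb in E1/E2-KO females. In the controls the Pax9 region also held Nkx2-9, a homeobox gene upstream of it, and in both E1/E2-KO lists a separate region held that stretch. By a threshold of 1.5-fold, 2 of 9 members (Pax1 and Pax9) were narrower in E1/E2-KO males, where 14.8% of all genes with a region in both lists were, and 4 of 9 (Pax1, Pax4, Pax6 and Pax9) in females, where 17.6% were. Wider regions were found at 0 of 9 members in males and at 1 of 9, Pax8, in females, against 22.0% and 18.9% of all genes.

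The narrower regions were of different kinds. At Pax9 and, in females, at Pax6 they were control regions divided by a short gap. The gaps of 2 kb, at Pax9 in males and at Pax6 in females, are shorter than the 2400 bp that SICER was set to bridge. In each list, neighbouring regions lay as little as 0 kb apart, for a reason that is not known. What such short gaps mean is therefore unclear, as are the narrower widths that rest on them. At Pax9 the control male region was split in E1/E2-KO males by a gap of 2 kb at chr12:57755201-57757200, and the control female region in E1/E2-KO females by a gap of 3.2 kb at chr12:57760001-57763200. These gaps were the only bases of the control regions outside E1/E2-KO regions, 1.45% and 2.47% of their width. Pax2, which was not narrower by the threshold, was divided in the same way, and a gap of 2.8 kb at chr19:44914801-44917600, just beyond the gene, ended the region at the same base in both E1/E2-KO lists, and the control regions ran through it in both sexes. At Pax6 the region of E1/E2-KO females was 71.6 kb and that of control females 127 kb, with a gap of 2 kb between it and the next region. Pax1 lost longer stretches, with 17.6 kb inside and 3.2 kb at the edge of the control male region, and 3.6 kb inside and 20.4 kb at the edge of the control female region, together 11.9% and 13.8% of the control width. No H3K27ac or H3K4me1 peak of the same sex lay in any of these stretches. At Pax4 in females no gap was involved, and the region was shorter at both edges. When regions within 5 kb of each other were joined, Pax9 measured 138 and 149 kb in control and E1/E2-KO males and 130 and 138 kb in females, and Pax6 127 and 138 kb in females, so neither was narrower. Pax1 then measured 314 and 140 kb in males, while in females it was narrower by less than 1.5-fold, and Pax3 measured 238 and 139 kb in males. Under this setting the members narrower by the threshold were Pax1 and Pax3 in males and Pax4 in females, at 40.4 and 24 kb.

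Over the 9 genes, 3.12% of the bases of the control male regions and 4.23% of those of the control female regions lay outside any E1/E2-KO region of the same sex. For the whole lists these shares were 24.6% and 25.7%. Conversely, 3.68% and 2.7% of the E1/E2-KO bases at Pax genes were outside control regions, against 23% and 23.4% for the whole lists. Pax4 had the highest single share, with 40.6% of its control female region outside the E1/E2-KO female list, as 4.4 kb at the edge beyond the gene and 12 kb at the edge before it.

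Few H3K27ac peaks lay near Pax genes in control liver, and more did in E1/E2-KO liver. Within 10 kb of a span, 3 of 9 members had an H3K27ac peak in control males, 8 in E1/E2-KO males, 4 in control females and 7 in E1/E2-KO females. The shares of all genes were 60.5%, 69.0%, 67.1% and 68.4%, and those of the 1725 long covered genes 39.0%, 67.0%, 59.3% and 65.1%. Without Pax4, which is shorter than 20 kb, the Pax shares were 37.5%, 87.5%, 50% and 87.5%, so that in control males the family was level with the long covered genes. With equal numbers of the widest peaks, the member counts in females were 1 in control and 4 in E1/E2-KO, but the matching shares of all genes were not computed. In number of peaks, the 9 genes had 3, 23, 7 and 18 in the same order, where all genes had sums of 34197, 57954, 53339 and 54324. The sums over the 1725 long covered genes were 1486, 3828, 3069 and 3580, so these also had more peaks in E1/E2-KO in both sexes. The control lists thus held few peaks near Pax genes in both sexes, whereas the sum over all genes in females differed little between control and E1/E2-KO.

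**Figure D3:**
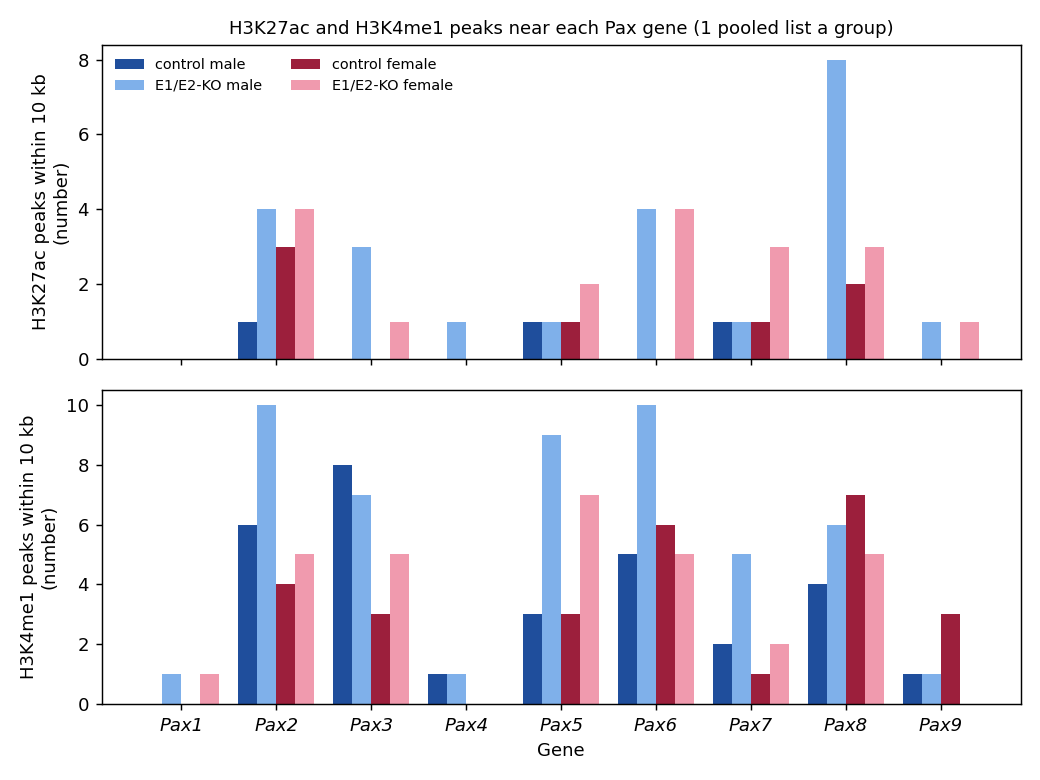
Number of H3K27ac peaks (upper) and H3K4me1 peaks (lower) within 10 kb of each Pax gene in the 4 pooled lists. H3K27ac bars at Pax3, Pax4, Pax6 and Pax9 stand only in the E1/E2-KO lists, and Pax1 has none; H3K4me1 bars stand in control and E1/E2-KO lists at all members but Pax1.

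A gained peak was an E1/E2-KO peak that no control peak of the same sex overlapped by at least 1 bp. In males 6 of 9 members (Pax2, Pax3, Pax4, Pax6, Pax8 and Pax9) had a gained H3K27ac peak, against 47.6% of all genes and 56.5% of the long covered genes (62.5% of the members without Pax4). The control male list was the shortest, and gains over all genes were more frequent in males than in females. In females, whose lists were of similar length, 7 of 9 members (Pax2, Pax3, Pax5, Pax6, Pax7, Pax8 and Pax9) had a gained peak, against 28.8% of all genes and 40.5% of the long covered genes. A lost H3K27ac peak was found at 0 of 9 members in males and at 1, Pax8, in females, against 9.55% and 31.8% of all genes. Only a gene with a control peak can lose one. In males 3 of 9 members had a control peak and in females 4, against 60.5% and 67.1% of all genes. The few control peaks thus limited the counts of losses, and the share of the long covered genes was not computed for losses. A peak present in both E1/E2-KO lists and overlapping no control peak of either sex was found at 4 of 9 members (Pax2, Pax3, Pax6 and Pax8), against 13.4% of all genes and 20.3% of the long covered genes, and the opposite pattern at 0 of 9, against 2.54%. When each H3K27ac list was reduced to its 29359 widest peaks, the length of the shortest list, 4 of 9 members had a gained peak in males and 4 of 9 in females, against 23.0% and 17.9% of all genes and 28.4% and 24.3% of the long covered genes. Of the 4 members with a peak new in both sexes, Pax3 and Pax8 remained under this setting, against 5.19% of all genes. Protein-coding neighbours lay within 10 kb of 3 members, Fscn3 at Pax4, Elp4 overlapping the end of Pax6 and Slc25a21 overlapping the end of Pax9. With only the peaks whose nearest protein-coding start was that of the member, 6 members in males and 7 in females had a gained H3K27ac peak. The share of all genes was not computed with this restriction, so these counts cannot be set against it.

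**Figure D4:**
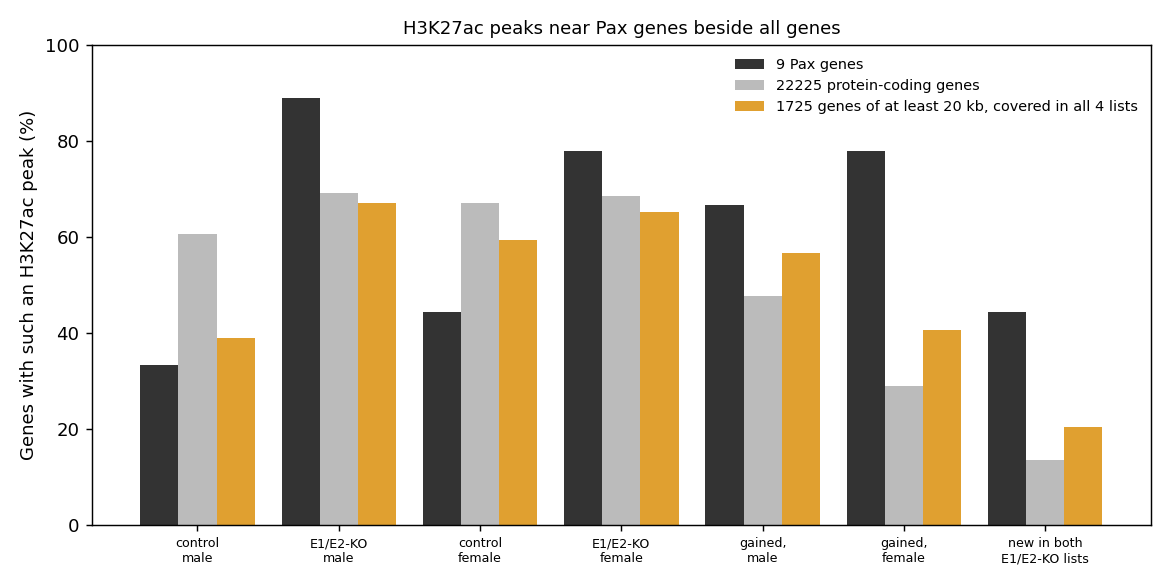
Percent of genes with an H3K27ac peak within 10 kb in each list, with a gained peak in each sex, and with a peak new in both E1/E2-KO lists, for the 9 Pax genes (black), all 22225 protein-coding genes (grey) and the 1725 genes of at least 20 kb covered by H3K27me3 in all 4 lists (orange). The Pax bars, which include Pax4, are below both others in the control lists and above both elsewhere. Without Pax4, which is shorter than 20 kb, the control male Pax share was 37.5%, level with the 39.0% of the orange bar. In the family, 1 gene is 11.1%.

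Among Pax2, Pax5 and Pax8, which share a closely related paired domain, each gene had its own pattern. At Pax2 (chr19:44830539-44912758, + strand), the early kidney regulator, the number of H3K27ac peaks was 1 in control males, 4 in E1/E2-KO males, 3 in control females and 4 in E1/E2-KO females. With equal numbers of the widest peaks these became 1, 2, 1 and 3. The intronic stretch printed first above, 15.3 kb from the start, was under a peak in all 4 lists. The second printed stretch, 16 kb from the start, was acetylated in the E1/E2-KO lists only, and a peak upstream of the gene, at -5.4 kb in control females, was in all lists but control males. E1/E2-KO males also had a peak of 239 bp in an exon 1.11 kb from the start. The new Pax2 peak was no longer new in both sexes when peaks within 1 kb were joined or only the widest peaks were kept.

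At Pax5 (chr4:44544017-44724318, − strand), the factor that commits cells to the B lineage, the H3K27ac numbers were 1, 1, 1 and 2 in control males, E1/E2-KO males, control females and E1/E2-KO females. All of these peaks fell in 1 intronic locus, chr4:44646360-44647449, 77.1 to 77.6 kb from the start, which carried H3K27ac and H3K4me1 in all 4 lists inside an H3K27me3 region. The control male peak, 44646584 to 44646895, and the control female peak, 44647139 to 44647350, did not overlap each other, and the single E1/E2-KO male peak of 822 bp spanned both. The peak counted as gained in females, 44646690 to 44646928, overlapped the control male peak. With peaks within 1 kb joined, Pax5 was not among the members with a gained peak. B-cell markers were not uniformly marked in these livers: 5, 5, 4 and 3 of 6 were covered by H3K27me3, in the same order, and 1, 3, 4 and 3 had an H3K27ac peak.

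At Pax8 (chr2:24276071-24331119, − strand), the thyroid and kidney factor, the numbers were 0 in control males, 8 in E1/E2-KO males, 2 in control females and 3 in E1/E2-KO females. The 8 peaks of E1/E2-KO males became 4 when peaks within 1 kb were joined and 4 with equal numbers of the widest peaks. Of the 8, 3 lay upstream, at -2.91 to -4.37 kb from the start, and the stretch printed above, at -3.53 kb, was shared with a peak in E1/E2-KO females. Gm13415, a noncoding transcript on the opposite strand, spans this stretch. The 1 lost peak of the family was in a Pax8 intron, chr2:24316101-24316320 in control females, and an E1/E2-KO female peak lay beside it without overlap, at chr2:24316838-24317110. Both places were under peaks in E1/E2-KO males. The H3K27me3 region at Pax8 was in 2 pieces of 40 and 54 kb in control females and was single in the other lists, at 183 to 194 kb.

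Pax3 and Pax7 are the pair that founds skeletal muscle and its satellite cells. Pax3 (chr1:78097842-78193709, − strand) had 0 H3K27ac peaks in both controls, 3 in E1/E2-KO males and 1 in E1/E2-KO females. The peak common to both E1/E2-KO lists covered the first part of the gene, from chr1:78192958 to chr1:78193641, 684 bp with 63% G+C and 44 CpGs, and overlapped an annotated Pax3 start in both lists. In the controls the nearest H3K27ac peak was 240056 bp from a Pax3 start in males and 230629 bp in females. H3K4me1 peaks lay at this place in both controls and in E1/E2-KO males but not in E1/E2-KO females. Pax7 (chr4:139292977-139389445, − strand) had 1, 1, 1 and 3 H3K27ac peaks, and its intronic locus chr4:139346255-139348002, 42.2 to 42.7 kb from the start, carried H3K27ac and H3K4me1 in all 4 lists. The additional E1/E2-KO female peaks lay 44.3 and 89.3 kb from the start and were in no other list.

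Pax4 and Pax6 act in the pancreatic islet, and Pax6 also in the eye. Pax6 (chr2:105509053-105543317, + strand) had 0 H3K27ac peaks in both controls and 4 in each E1/E2-KO list. With equal numbers of the widest peaks these became 2 in males and 0 in females, and with peaks within 1 kb joined 4 and 2. At 2 loci these overlapped between the sexes. The first was chr2:105514206-105517071, where E1/E2-KO peaks overlapped by 143 and 60 bp, 7.41 and 7.7 kb into the gene, over annotated exons and with 69.9% and 70% G+C. The second was the intronic stretch printed above, 19.1 kb from the start. In control males the nearest H3K27ac peak was 165037 bp from any Pax6 start and in control females 112108 bp. A peak 36.1 kb from the start in E1/E2-KO males lay downstream of Pax6, within the overlapping gene Elp4 and outside the H3K27me3 regions of all 4 lists. Pax4 (chr6:28392334-28399353, − strand) had 1 H3K27ac peak, in E1/E2-KO males, at -9.46 kb from the start, and 0 in the other lists. In E1/E2-KO females the nearest H3K27ac peak was 10162 bp from a Pax4 start, just beyond the 10 kb limit. With peaks within 1 kb joined, Pax4 had a peak new in both E1/E2-KO lists.

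Pax9 had 0 H3K27ac peaks in both controls and 1 in each E1/E2-KO list, 6.18 kb from the start in males and 4.68 kb in females, and these did not overlap. With equal numbers of the widest peaks, Pax9 and Pax4 had 0 H3K27ac peaks in all 4 lists, Pax5 had 0 in both female lists, and Pax7 and Pax8 had 0 in control females. In the full lists Pax1 was the only member with no H3K27ac peak within 10 kb in any list.

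**Figure D5:**
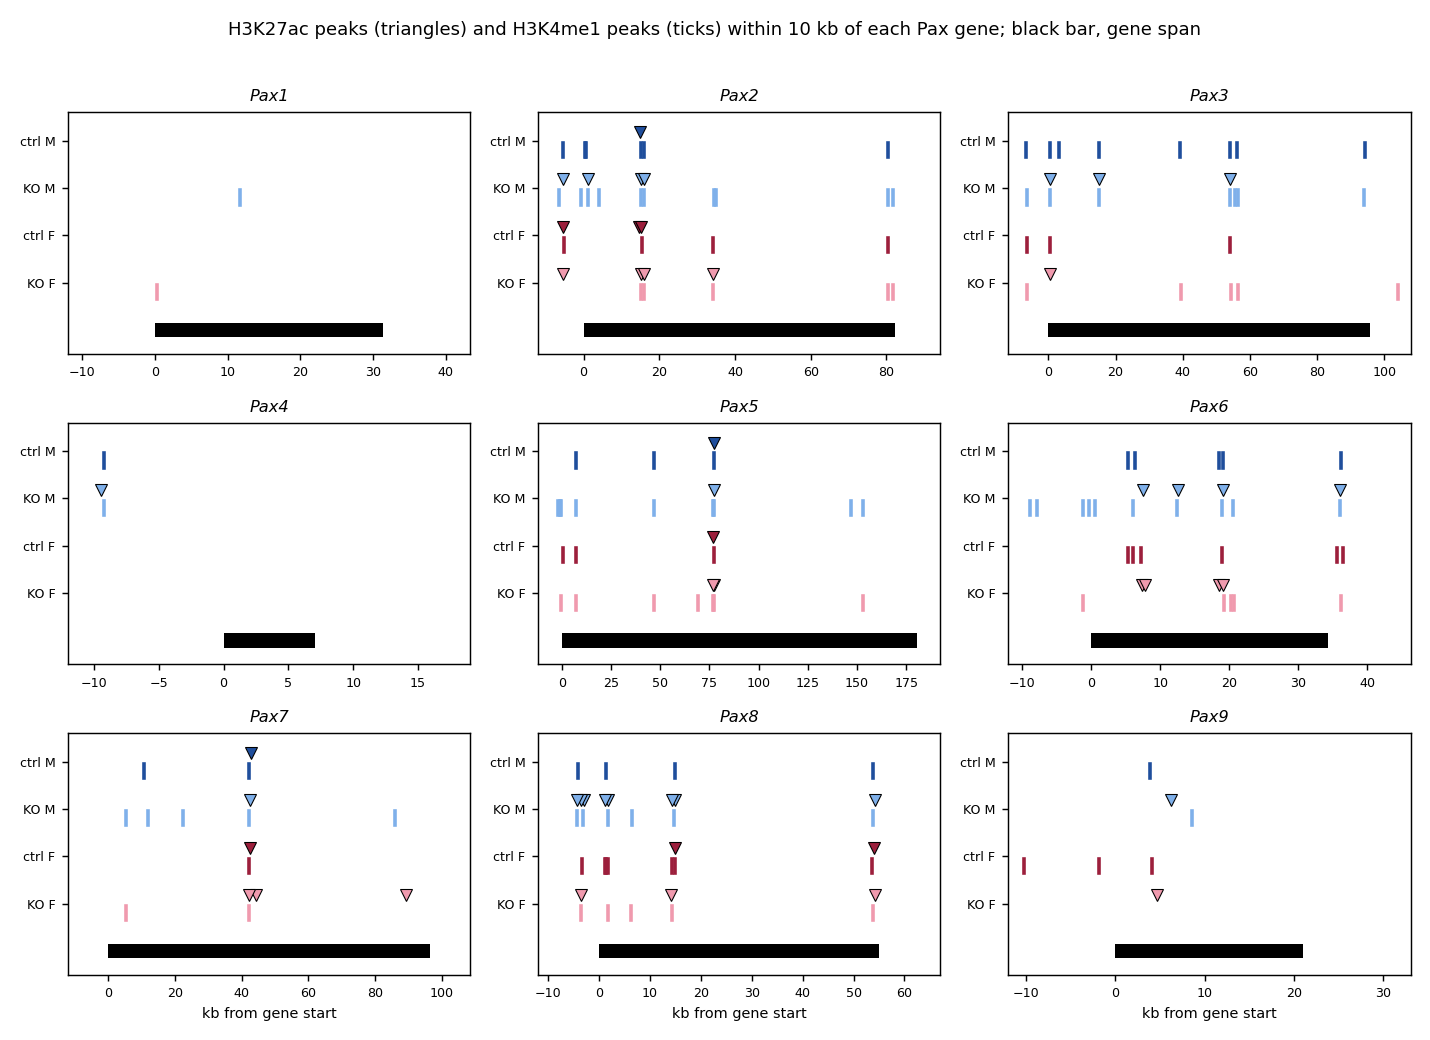
Position of H3K27ac peaks (triangles) and H3K4me1 peaks (ticks) within 10 kb of each Pax gene, by peak centre in kb from the gene start, in control (ctrl) and E1/E2-KO (KO) male (M) and female (F) liver; the black bar is the gene span. Triangles stand within 1 locus in all 4 lists at Pax2, Pax5 and Pax7, although the control male and control female peaks of Pax5 do not overlap, and only in the KO rows at Pax3, Pax4, Pax6 and Pax9.

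H3K4me1 peaks within 10 kb were found at 8 of 9 members in control males, 9 in E1/E2-KO males, 7 in control females and 7 in E1/E2-KO females, against 74.4%, 75.4%, 71.4% and 71.0% of all genes, so the counts in females were near the share of all genes. The sums over the family were 30, 50, 27 and 30 peaks, where those over all genes were 71161, 68142, 56476 and 51142. Those over the 1725 long covered genes were 5606, 6779, 4659 and 5051, so that pool, like the family, had more in E1/E2-KO in both sexes. Pax5 went from 3 to 9 peaks in males and from 3 to 7 in females, and Pax2 from 6 to 10 in males and from 4 to 5 in females. With peaks within 1 kb joined, Pax2 went from 4 to 7 in males and from 4 to 3 in females, so the direction in females turned. Pax1, with 0 peaks in both controls, had 1 peak in each E1/E2-KO list, 11.7 kb from the start in males and 0.198 kb in females. Pax9 had 1 peak in each male list, 3 in control females and 0 in E1/E2-KO females. Gained peaks were found at 8 of 9 members in males and 7 in females, against 44.7% and 39.8% of all genes, and lost peaks at 5 and 6, against 45.8% and 46.4%. Peaks new in both E1/E2-KO lists were found at 5 members (Pax2, Pax5, Pax6, Pax7 and Pax8), against 11.8% of all genes, and peaks lost from both control lists at 3 (Pax2, Pax6 and Pax9), against 15.6%. The median length was 55049 bp for the members and 15525 bp for all genes, and a longer span can hold more peaks. Shares of the long covered genes were not computed for these H3K4me1 counts, so gene length is not accounted for.

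Joining peaks of both marks that lay within 500 bp of each other gave 56 loci within 10 kb of the 9 genes, of which 53 were inside H3K27me3 regions in all 4 lists. Introns held 26 of these loci, exons 15, upstream sequence 13 and downstream sequence 2. H3K27ac was found at 22 loci. It was in all 4 lists at 3 of them (13.6%), the intronic loci of Pax2, Pax5 and Pax7. It was in E1/E2-KO lists only at 16 (72.7%), and in control lists only at 0. Throughout the genome, 7418 loci inside H3K27me3 regions in all 4 lists had H3K27ac. Of these, 21.8% had it in all 4 lists, 40.4% in E1/E2-KO lists only and 10.9% in control lists only. The Pax shares of both marks were not restricted to loci inside regions. They include a locus at Pax4 and 1 downstream of Pax6 that had H3K27ac in E1/E2-KO males only and lay outside regions in at least 1 list. With equal numbers of the widest peaks, 12 loci near Pax genes had H3K27ac, 8 (66.7%) in E1/E2-KO lists only, 0 in control lists only and 0 in all 4. The shares of the loci inside H3K27me3 regions throughout the genome were 32.9%, 13.1% and 29.9%. In the full lists, at 4 loci (18.2%), at Pax3, Pax8 and 2 at Pax6, it was in both E1/E2-KO lists and neither control list. The share was 11% of the loci with H3K27ac inside H3K27me3 regions throughout the genome. With equal numbers this was so at 2 loci (16.7%) near Pax genes, against 8.3% of the loci inside H3K27me3 regions throughout the genome. H3K4me1 was found at 53 loci, in E1/E2-KO lists only at 23 (43.4%) and in control lists only at 6 (11.3%), against 30.8% and 9.71% of the loci with H3K4me1 inside H3K27me3 regions throughout the genome. Inside the whole H3K27me3 regions that held Pax genes, H3K27ac peaks numbered 0.174 per 100 kb in control males, 2.25 in E1/E2-KO males, 0.539 in control females and 1.82 in E1/E2-KO females. Over all H3K27me3 regions of the same lists the densities were 0.594, 2.5, 1.31 and 1.61 peaks per 100 kb. H3K4me1 densities were 3.07, 5.09, 2.63 and 3.49 in the Pax regions and 2.52, 3.61, 1.95 and 2.03 in all regions.

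H3K27me3 coverage was also measured at genes that work with Pax factors. Of the 6 genes Eya1 to Eya4, Dach1 and Dach2, cofactors that work with Pax factors in eye, muscle and kidney development, 2 were at least 50% covered in each list and 1, Eya2, in all 4, shares close to those of all genes given above. A fall or rise of at least 25 points was seen in 1 gene each in each sex, where falls made up 6.07% and 7.57% and rises 9.86% and 6.31% of all genes in males and females. Eya4 fell by 35.6 points in males, Dach2 fell by 35.4 points in females, and Eya1, a coactivator phosphatase, rose by 43 points in males and 51.3 points in females. Dach2 coverage was 74.2% in control females, 38.8% in E1/E2-KO females and 0% in both male lists, so it could not fall in males. Of 31 known targets and partners of Pax factors in kidney, thyroid, pancreas, B cells, muscle and skeleton, 25 were covered in control males, 28 in E1/E2-KO males, 25 in control females and 26 in E1/E2-KO females, and 24 in all 4 lists. The shares of all genes were 29.9%, 32.5%, 29.7%, 28.7% and 20.1%, in the same order. Of these 31, 1 fell by at least 25 points in each sex, and 2 rose in males and 3 in females, against the shares of all genes with a fall or rise given above. Gdnf, the kidney growth factor regulated by Pax2, fell by 27 points in males and rose by 30 points in females. Cd22, a B-cell receptor, fell by 70.7 points in females. Among the rises, Ins1, an insulin gene, rose by 100 points in males, and Sall1, a kidney transcription factor, by 80.7 points in males and 100 points in females.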

How the data were processed

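Per the labels and the study's methods, the authors pooled the reads of each group of livers and aligned them to mm9 using Bowtie2 2.3.2. SICER 1.1, with windows of 400 bp and a gap of 2400 bp, gave the H3K27me3 regions. MACS2 2.1.1 at its defaults gave the peaks of the other 2 marks. The deposited lists hold start and end positions only, with no count, score or p-value, so depth is unknown.

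Here, starts were read as counted from 0 and printed from 1, and 1 base was added to SICER ends, which lie 1 base before a window end. Spans came from GENCODE M1 on NCBIM37, which is mm9, for 22225 protein-coding symbols. Promoter windows came from the RefSeq table of GRCm38.p6 and were placed on mm9 by exact match. Python 3.11.15 and NumPy 2.4.6 were used, and the interval functions were tested on simulated data. Covered meant at least 50% of the span, a change at least 25 points, and a nearby peak one within 10 kb. All 9 members are named, and of the partner and target lists up to 2 largest falls and 2 largest rises per sex. Part of the partner list is not reported here. The members and lists were chosen with earlier results of these data known, and the pool of covered genes of at least 20 kb, the 500 bp joining and the comparison with loci throughout the genome were chosen after seeing the data. Alternatives were other thresholds, spans, distances, joined regions or peaks, and equal list lengths.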

Additional observations from a re-analysis of the deposited data

Results flagged for a closer look

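The change from control to E1/E2-KO went opposite ways in males and females for 5 values, with 1 list per group, so none of these differences was tested. The width of the Pax4 region changed by 7.6 kb in males and by -16.4 kb in females. The width of the Pax6 region changed by 4 kb in males and by -55.6 kb in females, and with regions within 5 kb joined it was wider in E1/E2-KO liver of both sexes. The number of H3K4me1 peaks within 10 kb changed by -1 in males and 2 in females at Pax3, by 5 and -1 at Pax6, and by 2 and -2 at Pax8. With peaks within 1 kb joined, the opposite directions were no longer seen at Pax6, which had 3 and 6 peaks in control and E1/E2-KO males and 3 and 3 in females, nor at Pax8, which had 4 and 5 in each sex, while Pax3 had 8 and 5 in males and 3 and 5 in females.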

How the results depend on the processing

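Of 131 counts of members under an alternative, 122 were within 1.5 times the reported count. With the widest 50% of the regions of each list, 1 member lost at least 25 points of H3K27me3 coverage in males (Pax3, at 69.8% in E1/E2-KO males) and 1 in females (Pax4, at 0% in E1/E2-KO females), where 0 had otherwise. With regions within 5 kb joined, 1 member (Pax4) instead of 4 was at least 1.5-fold narrower in E1/E2-KO females, and in males the 2 narrower members were Pax1 and Pax3 in place of Pax1 and Pax9. With H3K27ac peaks within 50 kb, 2 members instead of 1 had a lost peak in females. With equal numbers of the widest H3K27ac peaks, 1 member had a peak in control females and 4 in E1/E2-KO females, 4 had a gained and 0 a lost peak in females, and 2 had a peak new in both E1/E2-KO lists. The cause of these changes was not tested, and shares of all genes were computed for only some of these alternatives. Every count of covered members stayed at 8 or 9. Of 180 H3K27ac and 180 H3K4me1 peak numbers of single members, 29 and 38 moved beyond 1.5 times. The counts of 3 loci acetylated in all 4 lists and 4 in both E1/E2-KO lists held with joining at 0 and 1000 bp and became 0 and 2 with equal numbers of the widest peaks, alternatives chosen after seeing the data.

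No paired analysis was possible because each list pools the livers of a group. For the same reason no liver was left out. Lists called at different depths differ in length, and the depth of each was unknown, so a missing peak is a peak not called, which does not show that the mark was absent.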
